A study of Macaca mulatta with 24 samples.

Results

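The genes described here encode receptors and transcription factors of natural killer (NK) cells, measured in whole blood of rhesus macaques before and after total body irradiation. The list holds 10 genes: KLRB1, KLRD1, KLRK1, KLRF1, NCR1, NCR3, CD244, CD160, TBX21 and EOMES. Members were taken as every non-control probe that carries 1 of these names on the array, which gave 11 probes for 7 genes among 43603 probes. KLRK1, which the array calls NKG2D, and TBX21, which carries a transcript identifier, were found only through their accessions. Their 3 probes are reported beside the others and kept out of the counts. No probe could be matched to KLRB1. All 14 probes passed the filter on dim probes, which asked for a signal well above background on 4 or more of 24 arrays, as did 27133 probes in all.

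The study followed 7 animals of Chinese origin on the arrays (4 males and 3 females), each exposed to 4 Gy to the whole body. The pre-irradiation group holds 7 arrays of untreated blood from 4 males and 3 females. Day 3 holds 4 arrays (3 males, 1 female), day 5 holds 6 (4 males, 2 females) and day 7 holds 7 (4 males, 3 females), all after 4 Gy. The arrays analysed here include no sham-irradiated samples, so time and handling cannot be told apart from radiation. The labels name X-rays and the methods a cobalt source.

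NK cells are lymphocytes that kill infected or transformed cells without prior sensitization, and a balance of activating and inhibitory receptors decides whether they strike. Lectin-like receptors (KLR genes) and immunoglobulin-like receptors (NCR1, NCR3, CD244, CD160) read ligands on the target cell, and the T-box factors T-bet (TBX21) and eomesodermin (EOMES) drive NK maturation and effector function. Most of these genes are also used by part of the CD8 T cells. In whole blood, fewer cells of a type and less RNA per cell cannot be told apart.

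Most probes that the results turn on are shown as 30-base stretches from their first base, 5′ to 3′, as the scanner output gives them. Positions are on the rheMac2 assembly as annotated by the array maker, which names a transcript but not an exon or an untranslated region. Capitals in the KLRF1 probes mark bases that both hold.
NCR1 probe 2, chr19:60918350-60918409, plus strand: agttatggagctgttgaataccagctgcat
NCR3 probe 1, chr4:31224823-31224882, minus strand: tcactgtcacatgggaacacactgccactc
NCR3 probe 2, chr4:31224388-31224447, minus strand: ggtccatgaacactctctctcacccagtaa
KLRF1 probe 1, chr11:10041594-10041653, plus strand: taatctccaggtgtaAGATTTTAAAGTGCA
KLRF1 probe 2, chr11:10041609-10041668, plus strand: AGATTTTAAAGTGCAattaaatgccaaaat
EOMES, chr2:170107495-170107554, minus strand: cttttgtgaaagtgatggtttcacctgact
TBX21, chr16:31956832-31956891, plus strand: gctccccctggcccttctctgtttagtagt

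Scanning took place in 2 sessions over 6 slides. Only day 7 and pre-irradiation appear in both: 6 arrays of each belong to the first session, and the remaining array of each belongs to the second, together with everything from day 3 and day 5. Before irradiation 49.6 to 53.1% of probes were well above background, and later 48.3 to 61.2%. Arrays that share a replicate number are taken as 1 animal. The day 7 array of replicate 2 was the dimmest, 2.03 below the reference array on the log2 scale before normalisation. Levels below are log2 normalised signal, and differences are log2 with the standard error (SE) from limma.

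None of the 7 genes passed the test on any day. A gene was called at a Benjamini-Hochberg adjusted p under 0.005 in its brightest probe, and by limma 0 of 7 were called at day 3, where 13.5% of all genes tested were. At day 5 the count was 0 of 7 against 15.4% of genes, and at day 7 it was 0 of 7 against 9.86%. At an unadjusted limma p under 0.05, 1 gene (EOMES) passed at day 3, 2 genes (CD244 and EOMES) at day 5 and 0 at day 7. Over all probes tested, 12620 of 27127, 12358 of 27133 and 10709 of 27133 passed on these days. In time order the 7 genes had median differences of 0.06, −0.16 and 0.06, beside −0.0030, −0.0042 and −0.011 over all genes tested.

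Between the days, 0 of 7 were called from day 3 to day 5 (0.0367% of genes), 0 of 7 from day 3 to day 7 (1.60%) and 0 of 7 from day 5 to day 7 (0.00917%). At an unadjusted limma p under 0.05 these counts were 0, 2 (NCR1 and EOMES) and 1 (EOMES). Over all probes tested, 2727 of 27127, 8869 of 27127 and 5631 of 27133 passed at that threshold. Counted by probe, 0 of 11 were called at day 3 (13.5% of probes), 1 of 11 at day 5 (16.7%) and 0 of 11 at day 7 (10.9%). The intervals come from the fits without a block and do not cover differences between settings. Over the 7 genes the 95% interval of the difference reached down to −2.14, −1.74 and −1.83 on the 3 days, and up to 1.53, 1.06 and 1.27. Alternatives can lie outside them: at day 5 KLRF1 probe 1 ran from 0.25 to 1.33 over 20 alternatives. Within scan session 1, with 6 arrays a group, the day 7 differences ran from −0.62 to 0.30, and 0 of 7 were called there as well.

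**Figure D1:**
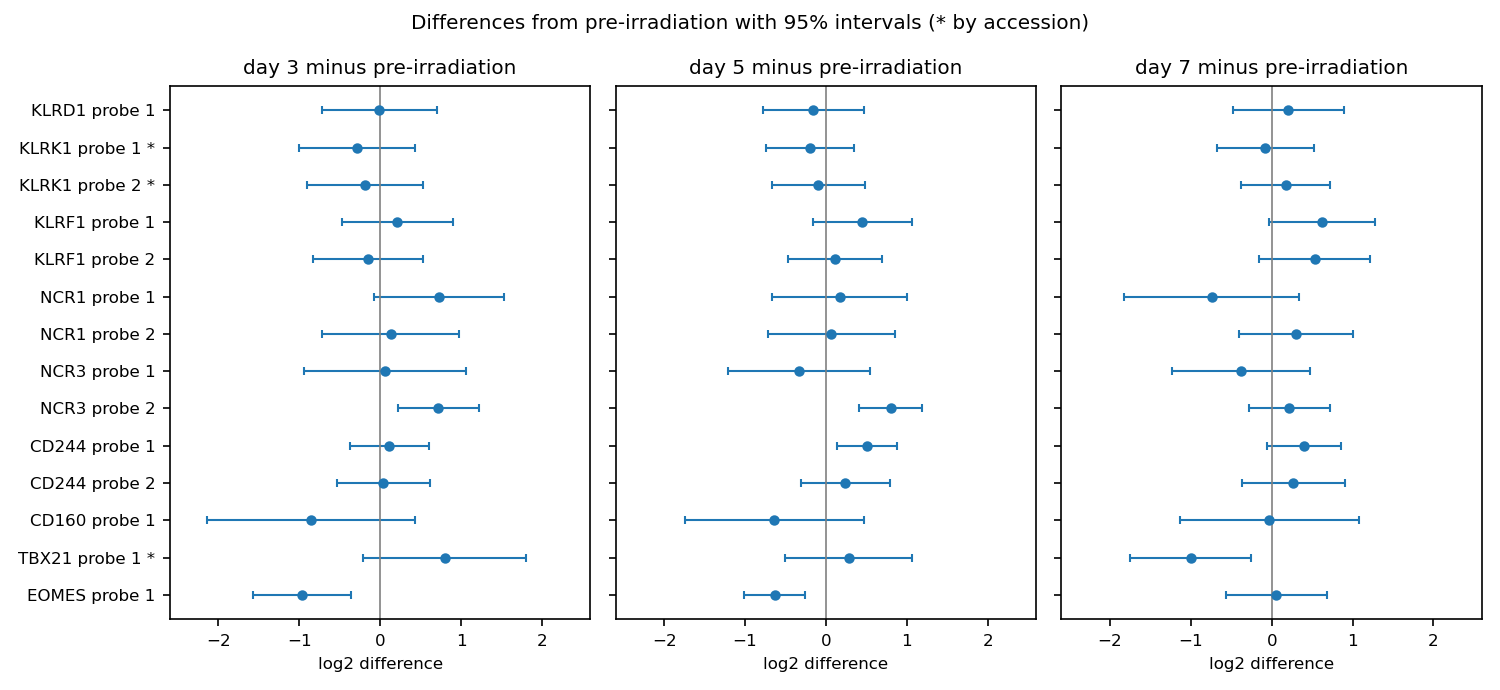
Log2 difference from pre-irradiation (x axis) for each of the 14 probes (y axis) at day 3, day 5 and day 7; points are limma estimates, bars their 95% intervals, and asterisks mark probes found by accession. Most bars cross 0; EOMES lies below 0 at day 3 and day 5, NCR3 probe 2 above 0 at day 3 and day 5, CD244 probe 1 above 0 at day 5, and TBX21 below 0 at day 7.

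KLRD1 encodes CD94, the partner of the NKG2 chains in the receptor that reads MHC-E. Its level ran from 10.23 to 11.83 before irradiation, with a median of 11.21. The 4 day 3 arrays read 10.91, 11.44, 10.68 and 11.98. At day 5 the lowest, median and highest arrays were 10.64, 10.88 and 12.04, and at day 7 they were 10.47, 11.64 and 12.43. The groups overlapped at every time. Relative to pre-irradiation KLRD1 differed by −0.01 (day 3, SE 0.33), −0.16 (day 5, SE 0.29) and 0.21 (day 7, SE 0.32), with limma adjusted p of 0.983, 0.711 and 0.669. The day 3 interval, −0.72 to 0.70, still allows a fall to 0.607 of the starting level. Over 21 alternatives the day 3 difference ran from −0.20 to 1.10, and its sign changed in 7. The 1 pre-irradiation array of scan session 2 read 10.23, against 11.11 to 11.83 in session 1, and the part of the session was not tested.

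KLRF1 encodes NKp80, an activating receptor whose ligand is the product of CLEC2B. Both of its probes lie within 1 stretch and overlap by 45 bases, and they moved together over the 24 arrays (r = 0.94), so they count as 1 measurement of the transcript. Probe 1 ran from 7.69 to 9.23 before irradiation (median 8.64). The day 3 arrays read 7.95, 9.33, 8.59 and 9.26. At day 5 the range was 8.44 to 10.18 (median 8.81) and at day 7 it was 7.92 to 10.23 (median 9.19). The highest arrays were those of replicate 3 at day 5 and replicate 5 at day 7, and the groups overlapped. The day 7 difference was 0.62 (SE 0.31, limma adjusted p 0.146) with an interval of −0.03 to 1.27. Within scan session 1 it was 0.30.

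KLRK1 encodes NKG2D, the activating receptor for stress-induced ligands of the MIC and ULBP families. Its probe 1 ran from 10.29 to 11.90 before irradiation, and the day 3 arrays read 10.24, 10.43, 10.54 and 11.56. By probe 1 the level was lower than before irradiation in each of the 4 animals at day 3, by 0.11 to 1.11, and by probe 2 in 3 of 4, while the group difference was −0.28 (SE 0.33, limma adjusted p 0.520). Day 5 and day 7 differed by −0.20 and −0.08. Probe 2 covers 60 bases that the annotation spreads over 4156 bases of chromosome 11, and so crosses an intron. It followed probe 1 with r = 0.89, and its differences were −0.18, −0.09 and 0.17.

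NCR1 encodes NKp46, among the most NK-restricted of the receptors. Its 2 probes did not agree (r = −0.11 over 24 arrays), and the brighter one shares part of its sequence with probes of other genes. Probe 1 shares a run of 20 or more bases on the same strand with 85 probes of other genes, and its longest shared run is 46 bases. Among all probes, 0.261% share such a run on either strand with at least as many probes of other genes. The other 13 member probes share none.

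The signal of NCR1 probe 1 followed that of the probes it resembles. Over the 24 arrays its correlation with the 83 of them that were tested had a median of 0.98 (0.607 to 0.998), whereas the median over all probes tested was −0.02. These points share arrays, and the probes share bases. The level also ran against the overall brightness of the array, with r = −0.89 between the level and the array's shift to the reference, and the 83 probes had a median r of −0.90 with that shift. Dim arrays read high: the 3 dimmest, replicate 2 at day 7, day 5 and day 3, read 12.16, 11.89 and 11.81. The part of array brightness in the values of this probe was not tested.

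Probe 1 ran from 9.42 to 10.97 before irradiation (median 10.14), and the day 3 arrays read 10.99, 11.81, 10.78 and 10.15. It spanned 9.31 to 11.89 at day 5 and 8.05 to 12.16 at day 7. The differences were 0.72, 0.17 and −0.74, none called, and that of day 7 moved to −1.19 without the dim array of replicate 2 (limma adjusted p 0.018), an alternative chosen after seeing the data. Probe 2, which holds no shared run, was well above background on 6 of 7 pre-irradiation, 3 of 4 day 3, 4 of 6 day 5 and 5 of 7 day 7 arrays. It ran from 5.25 to 6.60 before irradiation, and the day 3 arrays read 4.65, 6.57, 6.35 and 6.07. The day 5 range was 4.64 to 6.98 and the day 7 range 4.97 to 7.29. Its differences were 0.13, 0.07 and 0.30, with limma adjusted p of 0.817, 0.903 and 0.534, and an interval of −0.72 to 0.97 at day 3.

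**Figure D2:**
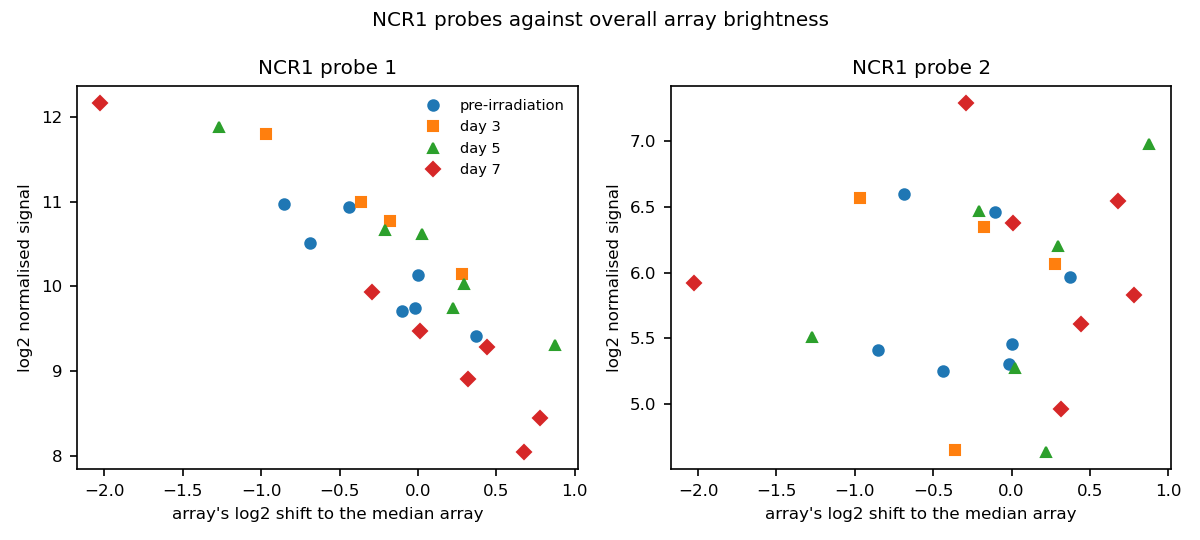
Log2 normalised signal of NCR1 probe 1 (left) and probe 2 (right) on the y axes against each array's log2 shift to the reference array on the x axes (negative values are dim arrays); each point is 1 of 24 arrays and symbols mark the groups. Probe 1 falls from 12.16 on the dimmest array to 8.05 on 1 of the brightest (r = −0.89), and probe 2 shows no such slope (r = 0.06).

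NCR3 encodes NKp30, an activating receptor that binds BAG6 and B7-H6. Its probes also disagreed (r = −0.30). Probe 1 ran from 9.85 to 12.02 before irradiation (median 10.85), and the day 3 arrays read 9.79, 11.47, 10.66 and 12.17. At day 5 it ran from 9.52 to 11.98 and at day 7 from 9.78 to 12.14. The groups overlapped throughout, and the differences were 0.06, −0.33 and −0.38, with limma adjusted p of 0.929, 0.560 and 0.512.

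NCR3 probe 2 lies 3′ of probe 1 on the minus strand and was annotated to another transcript variant. It is dim, being above background on 5 of 7 pre-irradiation arrays and on every later array. It ran from 4.99 to 6.04 before irradiation, the day 3 arrays read 6.60, 6.14, 6.72 and 5.95, and the day 5 range was 6.13 to 6.73. All 6 day 5 arrays lay above all 7 pre-irradiation arrays. At day 3, 3 of 4 did, and each of the 4 animals was higher than before irradiation. The differences were 0.72 at day 3 (SE 0.23, limma adjusted p 0.030, not called) and 0.80 at day 5 (SE 0.18, adjusted p 0.0039), the 1 call among the 11 probes. The call was lost in 13 of 20 alternatives, among them those with the replicate number as a block (0.85, adjusted p 0.0050, just over the threshold) and with the scan session as a block (0.49, adjusted p 0.454). It was also lost without replicate 1, 2, 3, 4, 6 or 7 in turn, at adjusted p from 0.0075 to 0.023. The other losses came with normexp background (0.61, adjusted p 0.283), quantile normalisation (0.76, adjusted p 0.0056), no filter on dim probes (adjusted p 0.0085) and all 4 groups in 1 fit, without the replicate block (adjusted p 0.0068) and with it (0.0070). At day 7 the range was 5.33 to 6.65 and the difference 0.22 (adjusted p 0.520).

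**Figure D3:**
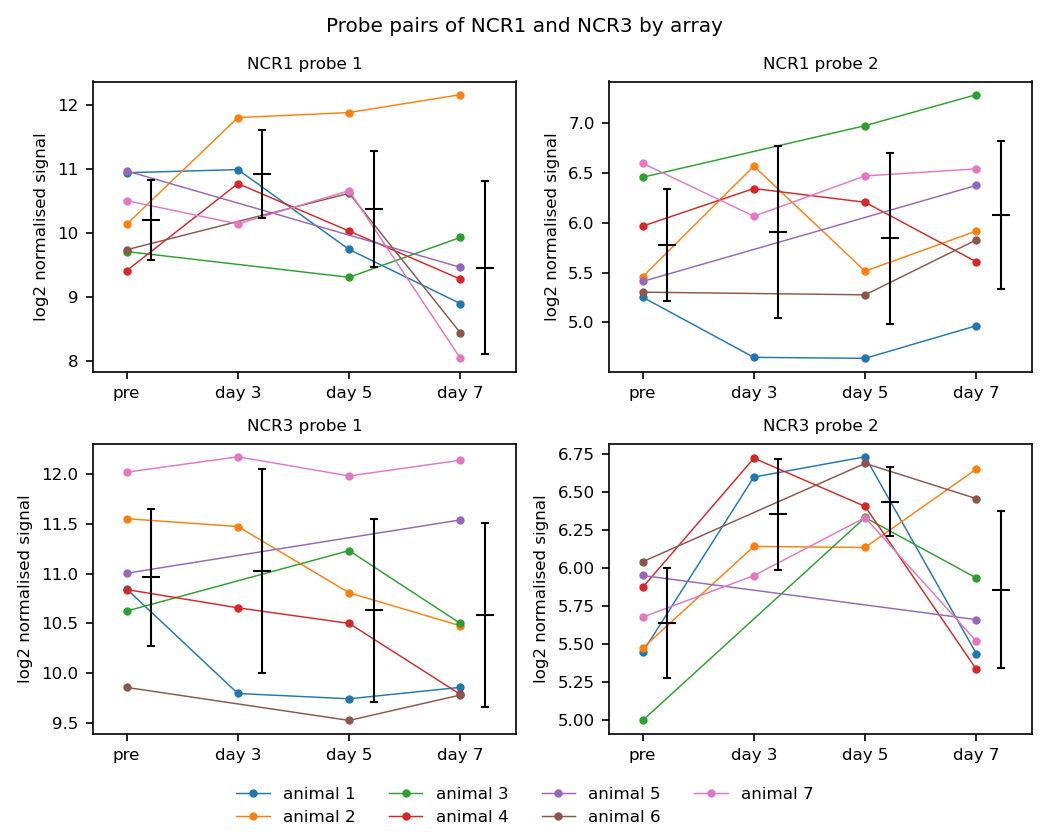
Log2 normalised signal (y axes) of both probes of NCR1 and of NCR3 before irradiation and at days 3, 5 and 7 (x axes); coloured lines join arrays of 1 animal, and black bars are group means with SD. NCR3 probe 1 has animal 7 on top at every time, above the overlapping other animals, while probe 2 is higher at day 5 (6.13 to 6.73) than before irradiation (4.99 to 6.04).

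CD244 encodes 2B4, the receptor for CD48. Probe 1 ran from 7.04 to 7.64 before irradiation (median 7.32). The day 3 arrays read 6.94, 7.85, 7.21 and 7.96. It reached 7.57 to 8.29 at day 5 (median 7.86), where 3 of the 6 exceeded every pre-irradiation value, and 6.92 to 8.27 at day 7. The day 5 difference was 0.51 (SE 0.17) at a limma adjusted p of 0.033, which misses 0.005. Probe 2 differed by 0.04, 0.24 and 0.27, and followed probe 1 with r = 0.67.

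CD160 encodes a receptor that binds HVEM, the product of TNFRSF14, and it was dim, being above background on 4 of 7, 1 of 4, 4 of 6 and 5 of 7 arrays of the groups in time order. It ran from 4.15 to 7.63 before irradiation, and the day 3 arrays read 6.64, 5.06, 4.01 and 4.89. The day 5 range was 4.23 to 7.04 and the day 7 range 4.62 to 7.85. Every one of the 4 animals was lower at day 3 than before irradiation, by 0.46 to 2.12, and 5 of 6 were lower at day 5. The group differences were −0.85 (SE 0.59), −0.64 (SE 0.51) and −0.03 (SE 0.52), with limma adjusted p of 0.277, 0.359 and 0.974. With the replicate number as a block, which compares arrays of the same animal, CD160 differed by −1.15 at day 3 (adjusted p 0.031) and −0.57 at day 5 (adjusted p 0.027), neither called at 0.005.

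EOMES, one of the T-box factors, showed the largest group difference at day 3 among the 7 genes in the fit without a block. Its level ran from 10.54 to 11.47 before irradiation (median 10.80). The day 3 arrays read 9.96, 10.69, 9.82 and 9.03, and 3 of 4 lay below all pre-irradiation arrays. The exception was replicate 2, at 10.69 against 10.71 before irradiation. The day 5 range was 9.73 to 10.63 (median 10.21), and 5 of the 6 were under every pre-irradiation value. At day 7 the range widened to 9.75 to 11.87, with 2 arrays above and 3 below all 7 pre-irradiation arrays.

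Against pre-irradiation, EOMES differed by −0.97 at day 3 (SE 0.28, interval −1.58 to −0.36) and by −0.63 at day 5 (SE 0.18, interval −1.01 to −0.25). The limma adjusted p were 0.019 and 0.013, so neither was called at 0.005. At a threshold of 0.05, EOMES would be the 1 of 7 called at day 3, where 36.0% of genes would be. EOMES and CD244 would be 2 of 7 at day 5, against 33.8%, and 0 of 7 would be called at day 7, against 26.3%. With the replicate number as a block at that threshold, EOMES was not called at day 3. At day 5 with that block EOMES was called and CD244 was not. The day 7 difference of EOMES was 0.06 (SE 0.29). From day 3 to day 7 it was higher by 1.03 (SE 0.42, limma adjusted p 0.114). All day 3 and day 5 arrays were scanned in session 2, and the 1 pre-irradiation array of that session, from replicate 5, read 10.90. With the session as a block EOMES differed by −1.03 at day 3 (adjusted p 0.278) and −0.70 at day 5 (adjusted p 0.272), and the part of the session was not tested further.

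TBX21 encodes T-bet, and its probe was named by accession only. It ran from 11.53 to 14.20 before irradiation (median 11.97), and the day 3 arrays read 13.23, 12.45, 13.53 and 13.41. The day 5 range was 12.45 to 13.01 and the day 7 range 10.81 to 11.78. All 7 day 7 arrays lay below all 4 day 3 and all 6 day 5 arrays. TBX21 differed from pre-irradiation by 0.80 at day 3 (SE 0.46, limma adjusted p 0.195), where each of the 4 animals was higher, by 0.49 to 1.44, and by 0.28 at day 5 (SE 0.37, adjusted p 0.582). The sign turned at day 3 with the slide block (−0.73) and the session block (−1.04), and at day 5 with normexp background (−0.23) and the session block (−1.56). Over 21 alternatives the day 3 difference ran from −1.04 to 1.10, with a lowest limma adjusted p of 0.016. It passed in 1 of them, with the replicate number as a block at a threshold of 0.05. Day 7 differed from day 3 by −1.80 (SE 0.25, limma adjusted p 0.0028), which was called and lost in 8 of 22 alternatives. Against day 5 it differed by −1.28 (SE 0.18, adjusted p 0.012) and against pre-irradiation by −1.0 (SE 0.35, adjusted p 0.046).

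For TBX21 the pre-irradiation array of session 2 read 14.20, against 11.53 to 12.74 in session 1. It and the day 7 array of session 2 both come from replicate 5, so for these groups session and animal cannot be told apart. With the session as a block the day 7 difference from day 3 was −1.37 (adjusted p 0.492), and with the slide as a block −1.69 (adjusted p 0.442). With the replicate number as a block it was −1.82 (adjusted p 0.012). Without replicate 1, 4 or 7 it also missed the threshold (adjusted p 0.029, 0.018 and 0.017), as it did with normexp background (−1.55, adjusted p 0.261) and with no filter on dim probes (adjusted p 0.0059). Within session 1 the day 7 difference from pre-irradiation was −0.76 (adjusted p 0.040). The day 7 array of session 2 read 11.78, the highest of its group.

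**Figure D4:**
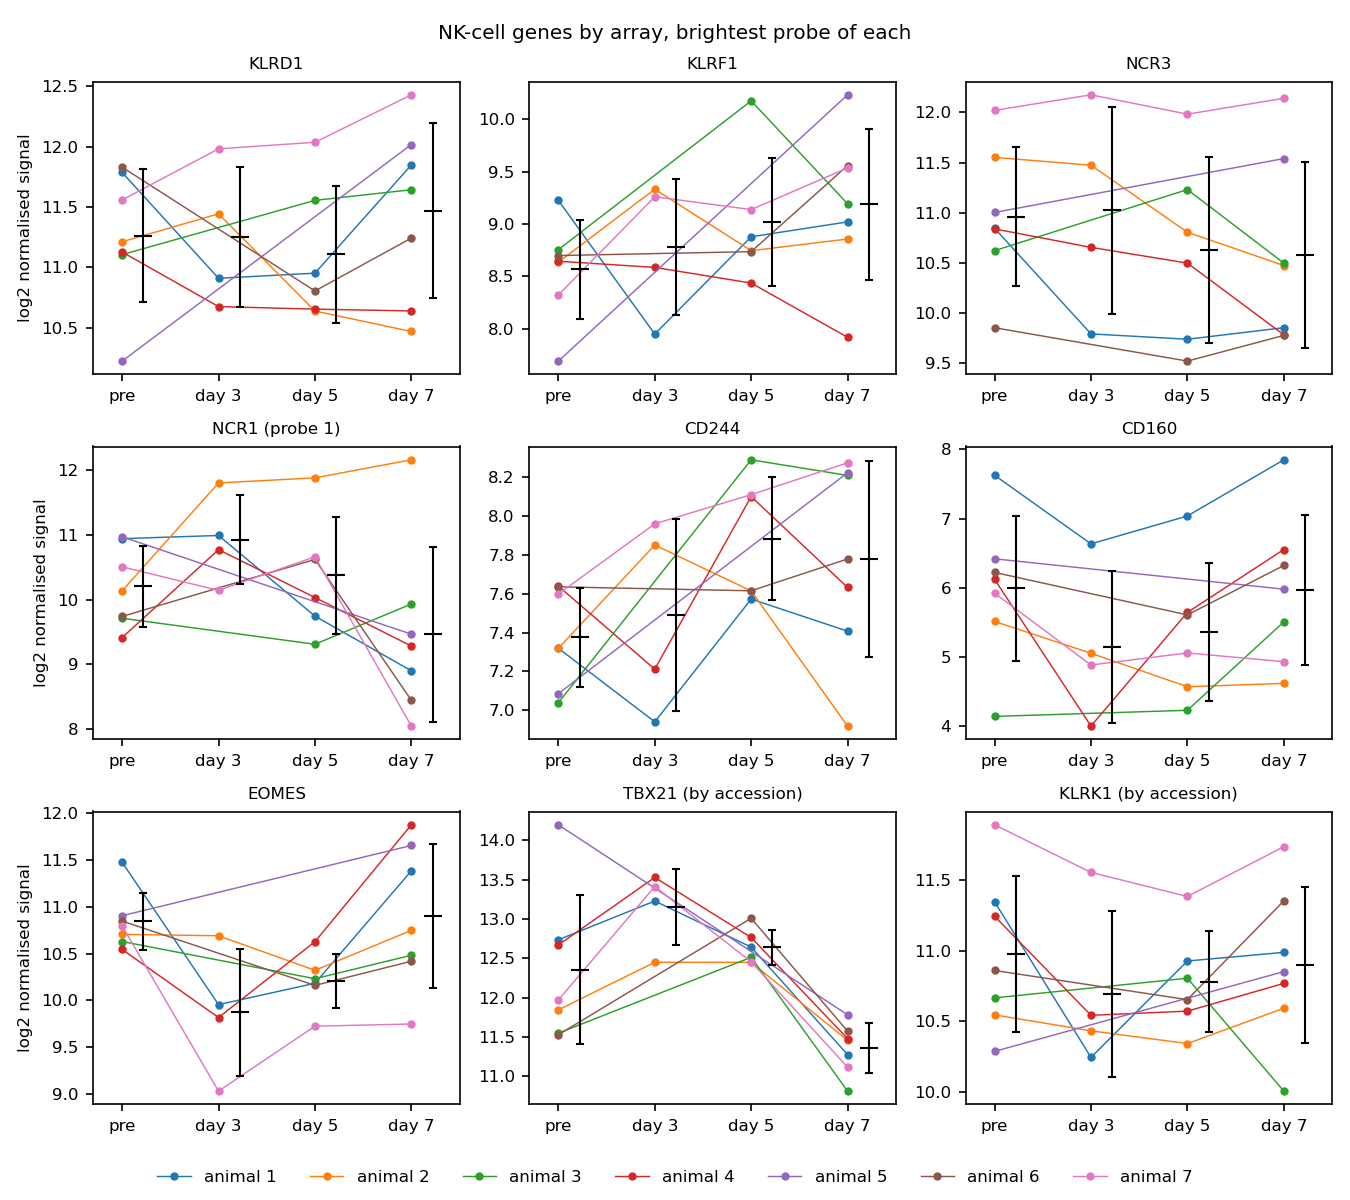
Log2 normalised signal (y axes, scaled per panel) of the brightest probe of 9 genes before irradiation and at days 3, 5 and 7 (x axes); coloured lines join arrays of 1 animal, and black bars are group means with SD. Every later group overlaps the pre-irradiation group in each panel, EOMES dips at day 3 (9.03 to 10.69) and TBX21 is lowest at day 7 (10.81 to 11.78).

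For several members the animal accounted for more of the spread than the day did. After the group means were taken out, the animal accounted for 84.8% of the remaining spread of NCR3 probe 1, 80.8% of that of CD160, 80.3% of that of NCR1 probe 2 and 72.9% of that of KLRK1 probe 1. Over all genes tested the median share was 45.0%, and 2.44% of genes reached the share of NCR3 probe 1. Over the 7 brightest probes the median was 48.6%, with KLRF1 lowest at 23.7%. The group accounted for a median of 16.5% of the whole spread of the 7 genes, and 36.2% over all genes tested. These shares are descriptions with no test. The pre-irradiation and day 7 arrays of an animal share a slide, and the part of the slide in its share was not tested.

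Some animals stood apart at every time point. NCR3 probe 1 read 11.98 to 12.17 on the 4 arrays of animal 7, above all 20 arrays of the other animals, which reached 11.55. KLRK1 probe 1 read 11.39 to 11.90 in the same animal, against at most 11.35 elsewhere, and KLRK1 probe 2 read 11.21 to 11.56 against at most 10.95. CD160 read 6.64 to 7.85 in animal 1, against at most 6.55 elsewhere. NCR1 probe 2 was lowest in that animal, 4.64 to 5.25 against at least 5.28. These animals were named after their values were seen.

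Correlations between the members over the arrays are given as descriptions. KLRD1 and KLRF1 correlated with r = 0.66 over 24 arrays (0.71 within groups), CD244 and KLRF1 with 0.64 (0.58), and CD244 and KLRD1 with 0.59 (0.71). EOMES had r of −0.12 with KLRD1 and −0.10 with KLRF1, and its highest r was with CD160, 0.52. NCR1 by its probe 1 ran against KLRD1 (r = −0.46). The points share 7 animals and the normalisation of their arrays.

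Outside the list, the genes whose brightest probe followed the mean standardised level of the 7 members most closely over the 24 arrays were S1PR5 (r = 0.80), FASLG (0.79), STAT4 (0.73), KIR3DL1 (0.73), SYTL2 (0.72), SSBP4 (0.71), SAMD3 (0.71), CCL14 (0.69), ID4 (0.68) and MICAL2 (0.67). S1PR5 is a sphingosine-1-phosphate receptor of NK cells, FASLG the death ligand of killer lymphocytes, and KIR3DL1 an immunoglobulin-like inhibitory receptor of NK cells. KIR genes are a family of close relatives, and reads of 1 member by the probe of another cannot be told apart. S1PR5 differed from pre-irradiation by −0.03, −0.16 and 0.17 at days 3, 5 and 7, and FASLG by −0.03, 0.05 and 0.24. Of the 10, SYTL2 was called, at day 7 (0.85, limma adjusted p 0.0033).

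Other NK receptors were followed in a list of 19 tested genes. Of these 3 rose at day 3, 2 at day 5 and 0 at day 7, with none lower, where 13.5%, 15.4% and 9.86% of all genes tested were called in either direction. Counts near these shares say nothing particular of a list. For the other NK receptors the medians were −0.03, −0.05 and 0.17. FCGR3, the Fc receptor CD16, rose by 2.84 at day 3 (SE 0.21, limma adjusted p 9.9e-06) and by 2.45 at day 5, and was higher by 1.49 at day 7 (adjusted p 0.0081, not called). CX3CR1, a chemokine receptor also of monocytes, rose by 1.78 and 1.25 at days 3 and 5, and CD226, an activating receptor, rose by 1.28 at day 3. These last 2 were named after their values were seen. Neutrophils and monocytes also carry CD16. Of the marker genes tested, 2 of 9 for neutrophils and 3 of 7 for monocytes rose at day 3, and none fell. The summed level of the neutrophil markers ran from 15.47 to 16.87 before irradiation and from 17.04 to 18.14 at day 3, and that of the monocyte markers from 16.27 to 17.03 and from 17.13 to 17.62. Their part in these values was not tested. SLAMF7 differed by 0.64, 0.50 and 0.41, TIGIT by −0.37, −0.29 and 0.06 and KIR2DL4 by 0.74, 0.39 and 0.43, none called.

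Of 15 cytotoxic effector genes, 1 fell at day 3 (GZMK, −1.93), 1 fell at day 5 (XCL1, −1.43) and none passed at day 7, beside 13.5%, 15.4% and 9.86% of all genes. The medians were 0.40, 0.11 and 0.31. Granzyme B (GZMB) differed by 0.50, 0.28 and 0.38, granulysin (GNLY) by 0.40, −0.14 and −0.12, GZMH by 0.50, 0.04 and 0.31, and perforin (PRF1) by 0.42, 0.47 and 0.58. The lowest limma adjusted p of these 4 was 0.020, for PRF1 at day 7. GZMK and XCL1 were named after their values were seen.

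Counts among signalling partners were near or below the shares over all genes. Of 13 adaptors and kinases of NK receptors, 2 rose at day 3, 1 rose at day 5 and 1 fell at day 7, beside 13.5%, 15.4% and 9.86% of all genes. FCER1G, the Fc receptor gamma chain that is shared with myeloid cells, rose by 1.67 at day 3 (limma adjusted p 0.0017). VAV1, a signalling exchange factor named after its values were seen, rose by 0.73 at day 3 and 0.85 at day 5. TYROBP, which encodes DAP12, fell by 0.80 at day 7 (adjusted p 0.0048). LAT2 differed by 0.33, 0.08 and −0.56, and SYK by 0.68, 0.32 and −0.39.

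Of 18 other transcription factors used by NK cells, 3 fell at day 3, 1 fell and 1 rose at day 5, and 1 fell at day 7, again near or below the 13.5%, 15.4% and 9.86% over all genes. TCF7, a factor of naive and precursor lymphocytes, fell by 1.42 at day 3 (SE 0.30, limma adjusted p 0.0038) and differed by −0.89 and −0.82 later. TOX2, a factor of NK development, fell by 1.63, 2.02 and 1.48 at days 3, 5 and 7. GATA3 fell by 0.72 at day 3 and PRDM1, which encodes Blimp-1, rose by 0.89 at day 5. TOX2, GATA3 and PRDM1 were named after their values were seen. ID3 differed by −1.07, −1.05 and −0.86, FOXO3 by −0.42, −0.67 and −0.85 and FOXO1 by −0.13, −0.27 and −0.17, none called.

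Cytokine receptors had medians of 0.75, 0.98 and 1.07 at days 3, 5 and 7. Of the 8 genes, 1 rose at day 3, 2 at day 5 and 3 at day 7, beside calls in either direction for 13.5%, 15.4% and 9.86% of all genes. IL18RAP, a chain of the interleukin 18 receptor, was higher by 0.94 at day 3 (limma adjusted p 0.180) and rose by 1.69 at day 5 (adjusted p 0.0037) and 2.85 at day 7 (SE 0.44, adjusted p 0.00033). IL12RB1, of the interleukin 12 receptor, rose by 1.33, 1.13 and 1.24 on the 3 days, and IL18R1, the other chain of the interleukin 18 receptor, rose by 1.79 at day 7. IL12RB1 and IL18R1 were named after their values were seen. IL2RG, the common gamma chain, differed by 0.01, −0.03 and −0.10, IL21R by 0.07, 0.24 and 0.77, and IL15RA by 0.73, 0.68 and 0.30. Neutrophils and monocytes also use several of these receptors, and their part was not tested.

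Of the 8 ligand genes tested, 4, 3 and 1 rose on days 3, 5 and 7, while 0 fell, and 13.5%, 15.4% and 9.86% of all genes were called in either direction. MAMU-E, whose product is read by CD94, rose by 1.19 at day 3 and 0.92 at day 5, and differed by 0.21 at day 7. Class I genes are close relatives, so this probe may also read others. CLEC2B, which encodes the ligand of NKp80, rose by 1.38, 1.84 and 0.99 (limma adjusted p 0.0041, 4.5e-05 and 0.0022). CFP, which encodes properdin, reported as a ligand of NKp46, rose by 1.17 at day 3 and differed by 0.71 and 0.16 later. TNFRSF14, named after its values were seen, rose by 1.06 and 0.99 at days 3 and 5. BAG6 differed by 0.32, 0.28 and −0.02. Monocyte marker genes had medians of 1.05, 0.88 and 0.87 on the 3 days, and neutrophil markers 1.04, 1.06 and 0.57. The part of these cells in the ligand values was not tested. Whether ligand and receptor genes differ in their change was not tested.

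Other blood cell markers were counted in the same way, where 13.5%, 15.4% and 9.86% of all genes were called. All 10 B cell marker genes tested fell at days 3 and 5 and 9 of 10 at day 7, with medians of −3.23, −3.62 and −3.58, where 0 of 7 NK genes passed. Of 14 T cell markers 2 fell at day 3 (CD8B by 1.71 and ICOS by 2.05, both named after their values were seen), and 0 passed at day 5 or day 7, which at day 3 is near the share over all genes, with medians of −0.80, −0.33 and 0.23. CD2 differed by −0.79, −0.40 and −0.02, BCL11B by −0.80, −0.35 and −0.05, CD3D by −0.50, −0.40 and −0.06 and CD3G by −0.49, −0.31 and 0.37. Red cell precursor markers fell in 7, 9 and 8 of 9 genes, and 10 of 10 platelet markers rose at day 3. Normalisation sets each array to a common level, so a level is a share of the signal measured. Whether NK and B cell genes differ in their change was not tested as a set. The mean level of the 7 NK genes ran from 8.86 to 9.89 over the pre-irradiation arrays, then 8.82 to 9.66, 9.01 to 9.53 and 9.08 to 9.87 on days 3, 5 and 7, and the groups overlapped. The mean level of the B cell markers was 10.80 to 11.10 before irradiation and 6.93 to 8.36 afterwards, with no overlap.

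**Figure D5:**
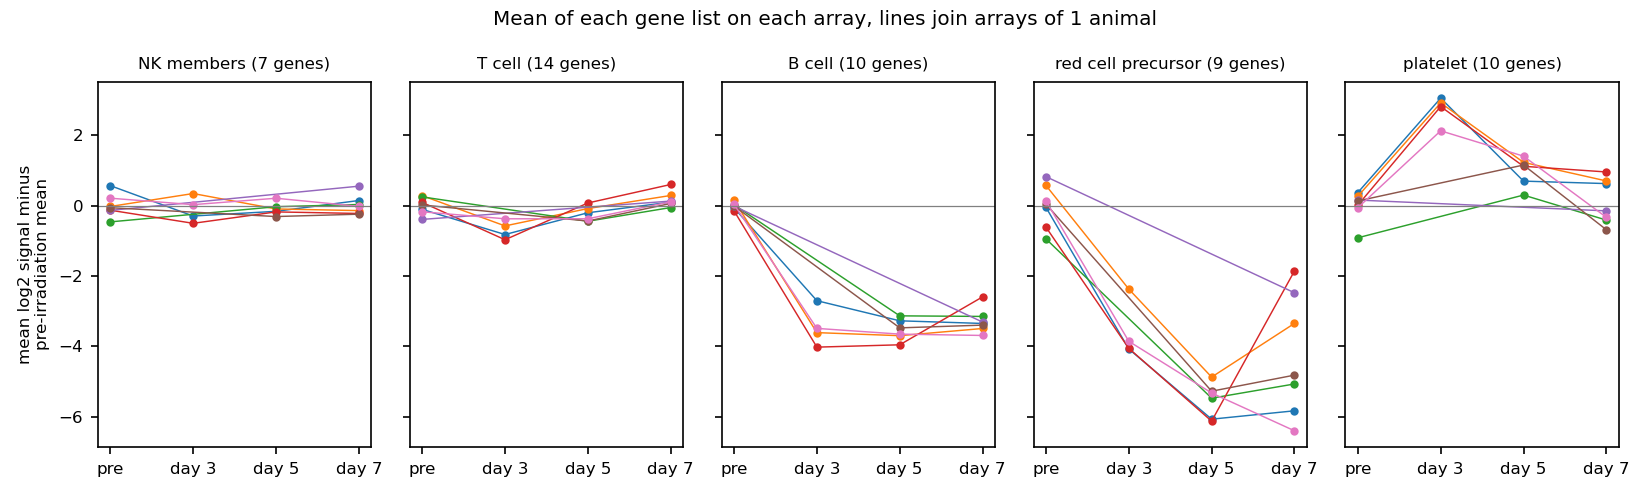
Mean log2 signal of the tested genes of 5 lists on each array, minus the pre-irradiation mean of the list (y axis), before irradiation and at days 3, 5 and 7 (x axes); lines join arrays of 1 animal. The 7 NK genes overlap between all groups, the T cell list dips at day 3, the B cell and red cell precursor lists lie below 0 on all later arrays, and the platelet list peaks at day 3.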

How the data were processed

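RNA of whole blood was globin-depleted and hybridised by the authors to one-colour rhesus arrays (the methods name a human array, the file headers a rhesus design). The deposited scanner files give the processed signal, a background-subtracted intensity, with flags for spots; per the file headers they were made with Feature Extraction 12.0.2.2, and the submitters' notes give 10.7. The authors' deposited value table holds log2 signal plus 1 constant per array, and 18497 of its rows matched.

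The log2 processed signal was normalised to the median array, outlier spots were left out, saturated spots kept and spots of a probe averaged. Tests were two-sided limma 3.58.1 fits (R 4.3.3) on the 2 groups compared, over 27133 probes and 10908 genes, and a gene stands for its brightest probe. All member probes, the 4 brightest genes of each NK-related list and the T cell list, and the 10 genes most like the members are named. The members and lists were chosen with earlier results of these data known. The scripts were tested on simulated data, and no 2 of the 24 arrays hold identical values.

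Replicate numbers were taken as animals, which the labels do not state: deviations from the group means correlated between arrays of the same number with r of 0.132 to 0.648. Between arrays of different numbers the median r was −0.093 to −0.050 over the comparisons. The pre-irradiation and day 7 arrays of each number share a slide, and the part of the slide was not tested. Alternatives were other background corrections, normalisations, filters, blocks, thresholds, the authors' table and leaving out replicates. Sequences of the other member probes are not reported here. Precision is limited by how many arrays each group holds.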

Additional observations from a re-analysis of the deposited data

Results flagged for a closer look

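Among 56 groups of values (14 probes in 4 groups), 2 held an array far from the rest, and chance alone sets about 1 in 20 such groups apart. KLRK1 probe 2 read 11.29 on the day 5 array of replicate 7, and the nearest of the 6 arrays read 10.45. The same animal was highest in this probe at every time. EOMES read 11.47 on the pre-irradiation array of replicate 1, and the nearest of the 7 arrays read 10.90. Without replicate 1 the EOMES difference was −0.89 at day 3 (limma adjusted p 0.059) and −0.52 at day 5 (adjusted p 0.039).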

How the results depend on the processing

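The count of called members stayed at 0 of 7 under every alternative run for day 7 against pre-irradiation and for the 3 comparisons between days. At day 3 it was 1 at an adjusted p under 0.05 (EOMES) and 1 at that threshold with the replicate block (CD160). Of 27127 probes tested, 9692 and 8184 were called in these settings. At day 5 the count of members was 1 when any probe of a gene could count (NCR3) and 2 at an adjusted p under 0.05 (CD244 and EOMES). It was 2 with the replicate block at 0.05 (CD160 and EOMES). Of 27133 probes tested, 4543, 9629 and 11155 were called in these settings. The replicate block at 0.005 left the count of members at 0 in all 6 comparisons. It changed no other call than those given for NCR3 probe 2 and TBX21. Leaving out each replicate in turn gave 0 to 0 members. Counting NCR1 by its other probe, the replicate block with all 4 groups in 1 fit, the replicate block at 0.05 and leaving out the dim array were chosen after seeing the data. TBX21 was called at day 7 against pre-irradiation (−1.0, adjusted p 0.0024) and day 5 (−1.47, adjusted p 0.0021) with the replicate block and all 4 groups in 1 fit.

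The count of called members was 0 as reported and could not fall. In settings that called few or no probes, 0 of 7 says nothing particular of the members. Over all probes the number called depended on the setting: at day 3 it was 3652 as reported, 139 with normexp background, 751 with the replicate block, 37 with the session block and 0 with the slide block. At day 5 it was 4543 as reported, 239 with normexp and 383 with the session block, and at day 7 it was 2951 and 315 with normexp. From day 3 to day 7 it was 343 as reported, 2177 with all 4 groups in 1 fit, 6 with normexp and 0 with the replicate, slide or session block. Leaving out each replicate in turn gave 864 (without replicate 4) to 3492 at day 3, 2714 to 4296 at day 5, 1654 to 2576 at day 7 and 0 (without replicate 1) to 249 from day 3 to day 7, so the number called over all probes rests in part on single animals. The cause was not tested. A slide block could not be fitted for day 5 against pre-irradiation or day 7 against day 5, nor a session block for day 5 against day 3, which lies within session 2 as it stands. Of the other comparisons only day 7 against pre-irradiation could be fitted within a session. CD160, NCR1 probe 2 and NCR3 probe 2 were dim, which limits them.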
